A study of Mus musculus with 6 samples.

Results

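The genes described here are Tnf and 9 genes of the NF-κB pathway that it activates and that feeds back on it, measured in microglia sorted from mice with or without PGC-1α overexpression. They were Tnf, Nfkbia, Nfkbiz, Tnfaip3, Bcl3, Nfkb1, Nfkb2, Rela, Relb and Rel. Members were found by matching the transcript accession of each non-control array probe to a RefSeq gene symbol, which gave 15 probes for the 10 genes, of 56605 probes on the array. All 10 had a probe that could be tested, of 12302 genes tested. Of them, 4 lay higher in every mPGC-1α sample than in any control sample, namely Tnf, Nfkbia, Nfkbiz and Bcl3, as did 12.2% of all tested genes, and no member passed an adjusted p of 0.05 in limma. When arrays were scaled to their medians, or corrected with normexp and quantile normalized, this held for Tnf and Nfkbia. The groups then overlapped for Nfkbiz and Bcl3. Without normalization the groups overlapped for all 4 genes.

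RNA came from microglia of male mice aged 10 weeks, 3 arrays per group, isolated magnetically through the surface receptor P2RY12. The labels divide the samples by PGC-1α overexpression alone, and the genotypes and the P2RY12 selection are those of the study's methods. The control group, PGC-1αf/f, carried the loxP-flanked PGC-1α allele and an eGFP gene, without Cre. The mPGC-1α group carried the same allele together with a tamoxifen-inducible Cre in the Cx3cr1 locus, so that the transgene is switched on in cells that express Cx3cr1. The study's methods describe tamoxifen before the experiments, a C57BL/6 background and littermate controls, and give no tamoxifen status for the animals on these arrays. The labels do not state whether each sample was 1 animal, so p-values measure the spread between these samples.

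TNF is a cytokine that microglia and other myeloid cells release when they sense damage or infection. Its receptors activate a kinase complex that marks inhibitor proteins, the IκBs, for destruction, and this frees dimers of the Rel proteins to enter the nucleus and switch on target genes. Among those targets are TNF itself and several inhibitors, including the IκB protein encoded by Nfkbia and the ubiquitin-editing enzyme A20 encoded by Tnfaip3, which close a feedback loop. Transcripts of such targets accumulate quickly after a stimulus.

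Promoter sequence is shown for 4 members. Tnf, Nfkbia and Bcl3 lay higher in mPGC-1α microglia, and Tnfaip3 is an inhibitor gene whose groups overlapped. The difference between Tnfaip3 and the other genes was not tested. The sequences are the 250 bases before the annotated start site, read 5′ to 3′ on the gene's strand from RefSeq (GRCm38.p6), and capitals mark matches to the NF-κB consensus motif on either strand. Tnf lies at chr17:35202008-35202257, Nfkbia at chr12:55492648-55492897, Bcl3 at chr7:19822756-19823005 and Tnfaip3 at chr10:19015411-19015660, all on the minus strand.
Tnf: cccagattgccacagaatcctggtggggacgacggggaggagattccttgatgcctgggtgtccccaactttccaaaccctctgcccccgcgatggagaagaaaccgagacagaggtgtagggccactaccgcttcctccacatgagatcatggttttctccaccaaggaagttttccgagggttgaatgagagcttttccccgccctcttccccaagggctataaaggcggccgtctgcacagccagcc
Nfkbia: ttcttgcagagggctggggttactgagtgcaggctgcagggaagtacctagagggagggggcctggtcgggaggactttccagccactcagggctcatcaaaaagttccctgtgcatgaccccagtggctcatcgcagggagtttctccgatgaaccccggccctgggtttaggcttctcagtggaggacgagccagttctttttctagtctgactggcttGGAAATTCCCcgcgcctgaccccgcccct
Bcl3: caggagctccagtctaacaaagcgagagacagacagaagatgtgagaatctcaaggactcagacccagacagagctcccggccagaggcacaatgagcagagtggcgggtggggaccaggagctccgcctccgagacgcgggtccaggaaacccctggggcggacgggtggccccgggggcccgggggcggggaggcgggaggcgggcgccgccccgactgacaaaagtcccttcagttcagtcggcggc
Tnfaip3: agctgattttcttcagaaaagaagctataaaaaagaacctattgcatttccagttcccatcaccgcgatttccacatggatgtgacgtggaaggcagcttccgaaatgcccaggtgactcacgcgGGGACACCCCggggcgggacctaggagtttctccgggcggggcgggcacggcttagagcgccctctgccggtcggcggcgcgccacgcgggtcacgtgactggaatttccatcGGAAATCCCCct

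The motif search covered 250 bases before and 50 after each start site, and 7 of the 10 genes had an entry (Tnf, Nfkbia, Tnfaip3, Bcl3, Nfkb2, Rela and Rel). Some genes have several start sites, and the 7 genes had 10 windows. The consensus was matched in 7 of these 10 windows, which belong to 5 genes, and in 4.51% of all 32851 such windows. Nfkbia held GGGAATTTCC on the opposite strand, 29 bases before the start site. The upstream Tnfaip3 start had GGGACACCCC 125 bases before it and GGGGATTTCC 12 bases before it, the latter on the opposite strand. The window of the other Tnfaip3 start, which is not printed, had 0 consensus matches. In Bcl3 the match GGGACTTCCC lay on the opposite strand, over a stretch that began at base 3 of the transcript, beyond the sequence printed above. Rel and Nfkb2 held overlapping matches. GGGGATTTCC lay 91 bases before the Rel start on the opposite strand, and GGGAATTCCC lay 39 bases before an Nfkb2 start on both strands. No window of Tnf or Rela had these letters. The looser frame GGGNNNNNCC, which every consensus match also fits, was found in 50.8% of all windows and 3 times in that of Tnf. A match describes letters in a window and not binding of a factor.

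The quality of the arrays bears on what follows. Ppargc1a, the targeted gene, was 0.80 higher in mPGC-1α microglia on the log2 scale at its brighter probe (SE 0.35, limma adjusted p 0.306). Its groups overlapped. At its dimmer probe the difference was 0.59 (SE 0.38, limma adjusted p 0.445), also with overlap. All values are log2 signal minus the 75th percentile of the array, a percentile that ranged from 1012 to 2138 intensity units. Between 27025 and 30272 of 59305 spots per array were well above background, with 0 saturated. Of the 6 arrays, 2 stood apart. The mean correlation with the remaining arrays was 0.928 for PGC-1αf/f replicate 3 and 0.962 to 0.972 for the rest. The 4 Y-linked genes examined were not well above background on mPGC-1α replicate 3, against its label. Values of the 10 genes without each of these arrays are given beside their results. All PGC-1αf/f arrays were in row 1 of the slide and all mPGC-1α arrays in row 2, so row and group cannot be told apart. The sorted cells expressed the markers of microglia, since all 12 listed, among them P2ry12, Tmem119 and Sall1, were well above background on all 6 arrays.

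Tnf, the ligand that starts the pathway, was examined first. Its brighter probe gave -2.57, -1.41 and -1.34 on the control arrays, against -0.84, -0.99 and -0.41 on those of mPGC-1α. Every mPGC-1α value lay above every control value, and PGC-1αf/f replicate 1 was the lowest by a wide margin. The means were -1.77 ± 0.69 and -0.74 ± 0.30 (SD, n = 3 each), a difference of 1.03 (SE 0.35), or 2.04-fold (limma adjusted p 0.244). The 95% interval of the difference ran from 0.20 to 1.86. A second Tnf probe, dimmer and well above background on 2 of 3 control arrays, differed by 1.20 (SE 0.45). It was tested only through the mPGC-1α arrays, where it is high, and is no support for the first. The size of the difference rested in part on a single control array. Without PGC-1αf/f replicate 1 it was 0.63. It was 1.24 without PGC-1αf/f replicate 3 and 0.86 without mPGC-1α replicate 3.

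**Figure D1:**
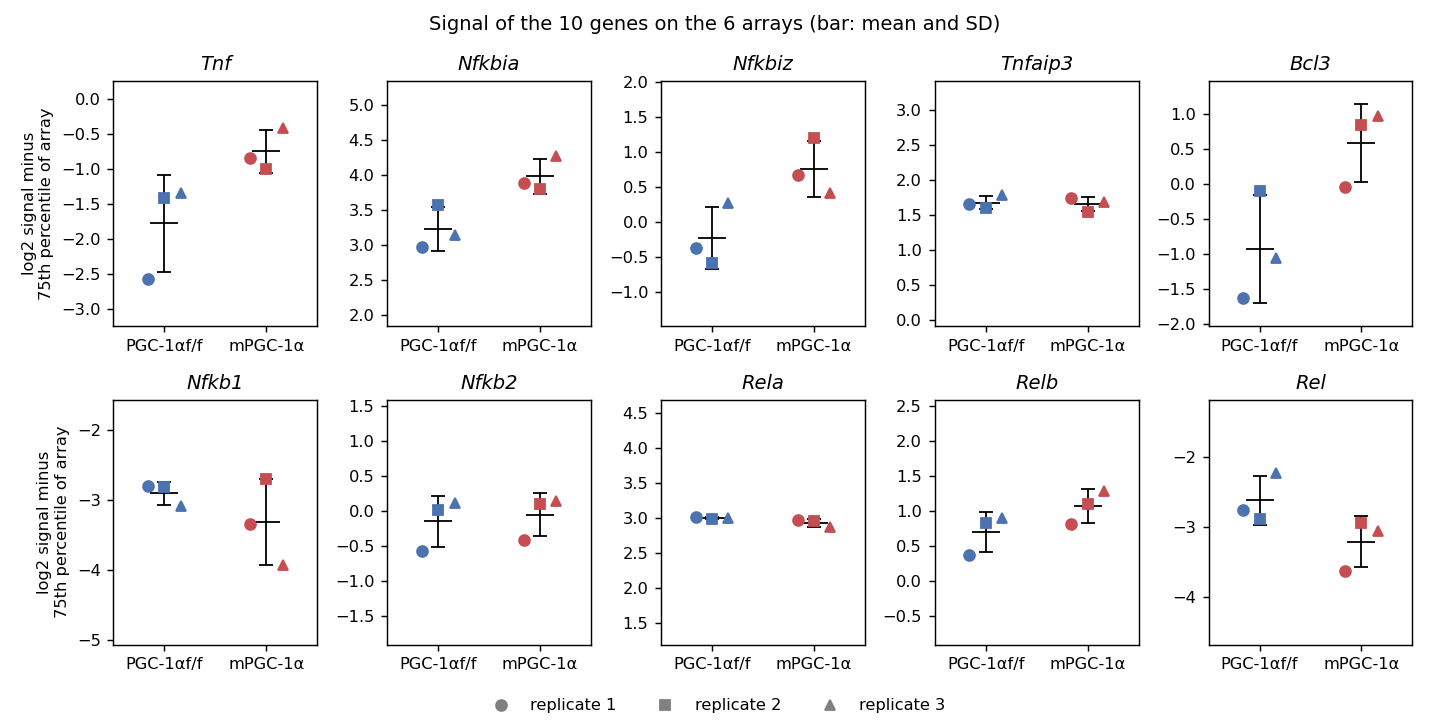
Signal of the 10 genes on each array, on the log2 scale relative to the array's 75th percentile, with 1 point per array and the mean and SD in black; each panel spans the same number of log2 units but has its own level. Tnf, Nfkbia, Nfkbiz and Bcl3 show all 3 mPGC-1α points above all 3 PGC-1αf/f points, whereas Tnfaip3 and Rela are almost level.

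Next, the inhibitors and nuclear IκB proteins were compared. Nfkbia encodes IκBα, which holds Rel dimers in the cytoplasm and is resynthesized when they are active. It read 2.97, 3.58 and 3.15 on the control arrays, against 3.88, 3.80 and 4.27 on those of mPGC-1α. The mPGC-1α samples were all higher, although PGC-1αf/f replicate 2 came within a small distance of the lowest of them. The difference was 0.75 (SE 0.21, 95% interval 0.26 to 1.25), or 1.69-fold (limma adjusted p 0.193). Leaving out PGC-1αf/f replicate 3 gave 0.71 and leaving out mPGC-1α replicate 3 gave 0.61, and array weights gave 0.46.

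Bcl3 encodes an atypical IκB protein that acts in the nucleus with p50 and p52 dimers. Its values were -1.62, -0.09 and -1.05 in controls and -0.04, 0.84 and 0.98 in mPGC-1α microglia. The groups did not overlap, but the gap between PGC-1αf/f replicate 2 and mPGC-1α replicate 1 was narrow. Bcl3 had the greatest difference of the 10 genes, 1.52 (SE 0.43, 95% interval 0.49 to 2.54), or 2.86-fold (limma adjusted p 0.197). Of all tested genes, 98.7% had a lower log2 difference. Bcl3 differed by 1.45 without PGC-1αf/f replicate 3 and by 1.32 without mPGC-1α replicate 3.

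Nfkbiz encodes IκBζ, a nuclear protein required for some secondary NF-κB targets. Its brighter probe gave -0.38, -0.59 and 0.27 on the control arrays, against 0.67, 1.20 and 0.41 on those of mPGC-1α. All mPGC-1α values were again above the controls, with a difference of 0.99 (SE 0.29, limma adjusted p 0.200). The probes of this gene disagreed. A second probe, well above background on all arrays, read -1.20, -0.86 and -0.30 against -0.66, -0.77 and 0.05. Here the groups overlapped, and the difference was 0.32 (SE 0.30, limma adjusted p 0.599). Over both probes together the difference of Nfkbiz was 0.66. At the brighter probe it was 1.24 without PGC-1αf/f replicate 3 and 1.17 without mPGC-1α replicate 3.

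Tnfaip3 encodes A20 and was the other classical inhibitor gene. It read 1.65, 1.60 and 1.78 on the control arrays, against 1.74, 1.55 and 1.68 on those of mPGC-1α. The groups overlapped throughout, and the SDs were 0.09 and 0.10 (n = 3 each). The difference was -0.02 (SE 0.13), with a 95% interval of -0.33 to 0.29. It was 0.03, with the sign turned, without PGC-1αf/f replicate 3 and -0.03 without mPGC-1α replicate 3. Over all alternatives it lay between -0.15 (median shift) and 0.04 (without mPGC-1α replicate 2).

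The Rel subunits, which form the DNA-binding dimers, were then compared. Rela encodes p65, the main transactivating subunit. It was nearly level, at 3.02, 2.99 and 3.00 on the control arrays, against 2.98, 2.95 and 2.87 on those of mPGC-1α. The mPGC-1α values were all below the controls, but by a difference of -0.07 (SE 0.12, limma adjusted p 0.781), with a 95% interval of -0.35 to 0.21. This was -0.07 without PGC-1αf/f replicate 3 and -0.04 without mPGC-1α replicate 3. The scaling moved it further, to -0.17 with quantile normalization, -0.20 under the median shift, -0.25 with normexp and -0.11 in the series table without normalization. A second Rela probe was well above background on 2 of 3 arrays in each group and was not tested.

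Relb, a subunit of the non-canonical pathway, gave 0.38, 0.83 and 0.91 in controls and 0.82, 1.11 and 1.29 in mPGC-1α microglia. The groups overlapped, and the difference of 0.36 (SE 0.20, limma adjusted p 0.385) had a 95% interval of -0.11 to 0.84. A second Relb probe differed by 0.25 (SE 0.19), also with overlap. At the brighter probe Relb differed by 0.20 without PGC-1αf/f replicate 1, by 0.46 without PGC-1αf/f replicate 3, by 0.25 without mPGC-1α replicate 3 and by 0.23 under the median shift.

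Nfkb2, which encodes p100 and its product p52, read -0.57, 0.02 and 0.11 against -0.41, 0.10 and 0.15. In both groups replicate 1 was the lowest array and replicates 2 and 3 were close together. The difference was 0.09 (SE 0.24, 95% interval -0.47 to 0.66), and a second probe gave 0.18 (SE 0.21). When arrays were scaled to their medians instead, Nfkb2 differed by -0.04. Leaving out 1 array moved it between -0.12 (PGC-1αf/f replicate 1) and 0.27 (mPGC-1α replicate 1), with 0.22 without PGC-1αf/f replicate 3 and -0.01 without mPGC-1α replicate 3.

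Rel and Nfkb1 were dim. Rel encodes c-Rel, and read -2.76, -2.89 and -2.23 on the control arrays, against -3.63, -2.95 and -3.07 on those of mPGC-1α, where 2 of 3 arrays were well above background. All mPGC-1α values were below the controls, with a difference of -0.59 (SE 0.25, limma adjusted p 0.298) and a 95% interval of -1.18 to -0.004. The gap between the groups was smaller than the spread within either. Rel differed by -0.38 without mPGC-1α replicate 1, by -0.40 without PGC-1αf/f replicate 3 and by -0.67 without mPGC-1α replicate 3. Its unadjusted p was above 0.05 when PGC-1αf/f replicate 1 or 3 or mPGC-1α replicate 1 or 3 was left out, when the third array of both groups was, and with normexp, array weights (-0.34), a trended eBayes, no filter or the series table without normalization. Nfkb1, which encodes p105 and its product p50, read -2.81, -2.82 and -3.10 against -3.35, -2.70 and -3.93, also with 2 of 3 mPGC-1α arrays well above background. These groups overlapped (difference -0.42, SE 0.30, limma adjusted p 0.494), and Nfkb1 differed by -0.51 when PGC-1αf/f replicate 3 was left out, by -0.73 without mPGC-1α replicate 2, by -0.12 without mPGC-1α replicate 3 and by -0.17 with array weights. The raw signal of the Nfkb1 probe was between 96.3 and 256 intensity units, and that of the Rel probe between 103 and 454.

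**Figure D2:**
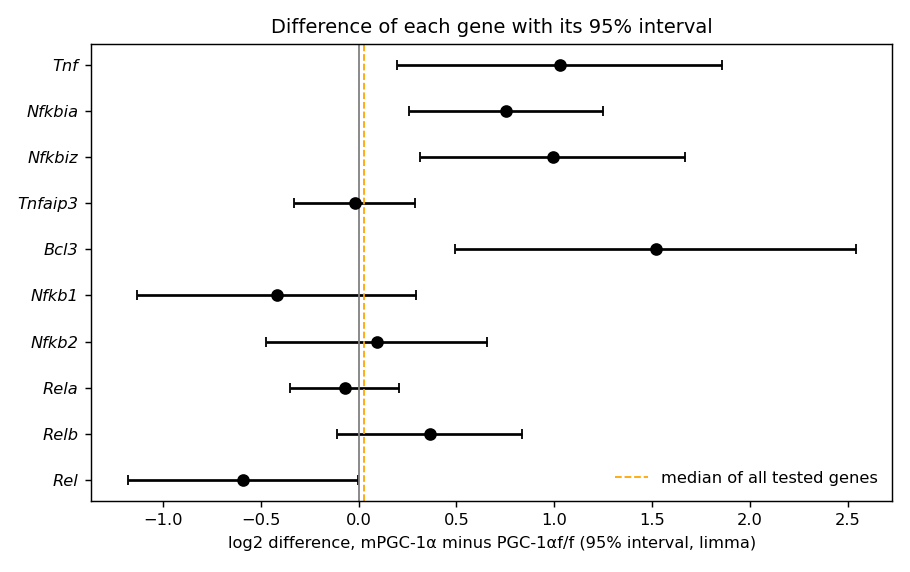
Log2 difference of each gene, mPGC-1α minus PGC-1αf/f, with the 95% interval from limma (3 arrays per group), the zero line in grey and the median of all 12302 tested genes, 0.03, as a dashed line. The intervals of Tnf, Nfkbia, Nfkbiz and Bcl3 lie above 0 and that of Rel just below it, before any adjustment for the number of genes.

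Read against all tested genes, the members' counts were as follows. None of the 10 passed an adjusted p of 0.05 in limma, a threshold passed by 0.065% of the 12302 tested genes. At an unadjusted p under 0.05, 4 members were higher in mPGC-1α microglia (Tnf, Nfkbia, Nfkbiz and Bcl3), against 8.16% of all tested genes, and 1 was lower (Rel), against 5.71%. Rel and Nfkb1 were tested only because all 3 control arrays, where their means were higher, were well above background, so the count for Rel is no support. A 2-fold higher value with an unadjusted p under 0.05 was found for Tnf and Bcl3 and for 2.47% of tested genes. The groups did not overlap with mPGC-1α higher in 4 members, against 12.2% of tested genes, and with mPGC-1α lower in Rela and Rel, against 10.8%. Here too the count for Rel is no support. Under the median shift the number higher without overlap was 2 against 7.19% of genes, and with normexp 2 against 10.3%. In the series table without normalization it was 0 against 9%. Under the median shift 3 members, without Tnf, were higher at an unadjusted p under 0.05, against 5.97%. The median log2 difference was 0.23 over the 10 members and 0.03 over all tested genes. The median of the members was 0.08 without PGC-1αf/f replicate 1, 0.34 without PGC-1αf/f replicate 3, 0.38 without mPGC-1α replicate 1, 0.12 without mPGC-1α replicate 3 and 0.10 under a median shift. It was 0.56 over the 8 members well above background on all 6 arrays, which leaves out Nfkb1 and Rel. The members were chosen with earlier results of these data known, so these counts describe them and are no test of the list.

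The same counts were taken without the arrays that stood apart. Members higher without overlap numbered 4 without PGC-1αf/f replicate 3, 4 without mPGC-1α replicate 3 and 4 without both, where 15.6%, 17.2% and 22.0% of tested genes did so. At an unadjusted p under 0.05 the number of higher members was 4, 3 and 2, against 6.23%, 5.02% and 5.67% of tested genes. Tnf was above that p without mPGC-1α replicate 3, and Nfkbia and Bcl3 were above it without both. With both arrays left out, Tnf differed by 1.07, Nfkbia by 0.57, Nfkbiz by 1.42 and Bcl3 by 1.26 (limma adjusted p 0.347, 0.391, 0.174 and 0.418, with 2 arrays per group). Columns 1 and 2 of the slide each held an array of both groups. Within column 1 the differences of Tnf, Nfkbia, Nfkbiz and Bcl3 were 1.74, 0.91, 1.05 and 1.58. Within column 2 they were 0.41, 0.23, 1.78 and 0.94, each from 1 array per group.

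**Figure D3:**
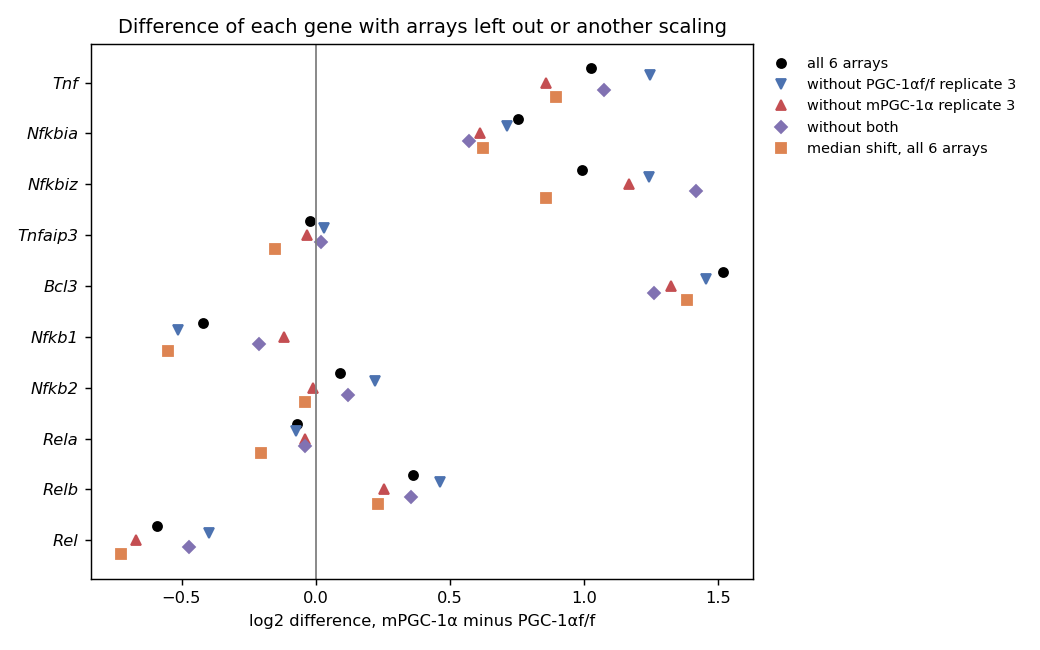
Log2 difference of each gene, mPGC-1α minus PGC-1αf/f, with all 6 arrays, with the arrays that stood apart left out, and with a median shift as the scaling. Tnf, Nfkbia, Nfkbiz and Bcl3 stay to the right of 0 in all 5 settings and Nfkb1, Rela and Rel to the left, while Tnfaip3 and Nfkb2 cross it.

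Other genes of the pathway were compared by role, from a list of 82 genes that excluded the members. Of these, 81 were on the array and 68 could be tested on every array. None passed an adjusted p of 0.05 in limma. In mPGC-1α microglia 19 were higher and 2 were lower with an unadjusted p under 0.05, against 8.16% and 5.71% of all tested genes, and the median difference was 0.12. The median was 0.04 without PGC-1αf/f replicate 1, 0.07 without mPGC-1α replicate 3, 0.04 with normexp and -0.01, with the sign turned, under the median shift. Of the 62 genes well above background on all 6 arrays, 14 were higher at that p, against 6.86% of all such genes, since Il1r1 and 4 targets were tested only through the mPGC-1α arrays, where they are high. Target genes held 14 of the 19. Of 23 tested targets, 20 had a higher mean in mPGC-1α microglia, against 54.1% of all tested genes, 13 did so without overlap, against 12.2%, and their median difference was 0.87. These 4 targets, Cxcl2, Nos2, Clec4e and Csf1, were among the 14 and the 13 but were well above background on 1 or 2 control arrays. Of the 19 targets well above background on all 6 arrays, 16 had a higher mean, 10 an unadjusted p under 0.05 and 9 no overlap, with a median of 0.72. The shares among all 11565 genes of that kind were 52.6%, 6.86% and 11%. Without the third array of both groups, 22 of the 23 had a higher mean, the median was 0.78 and 9 had an unadjusted p under 0.05, against 5.67% of all tested genes.

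Among the targets, Gadd45b and Ier3, stress-induced genes linked to cell survival, had the greatest differences of those well above background on all arrays. Gadd45b read -1.10, -0.01 and -2.33 on the control arrays, against 0.79, 0.54 and 2.14 on those of mPGC-1α, a difference of 2.30 (SE 0.64, limma adjusted p 0.194). Ier3 read -2.06, -1.67 and -2.31 against -0.25, -0.74 and -0.13. Its difference of 1.64 (SE 0.23) was several times its error, and its limma adjusted p of 0.0728 was the smallest among the 68 pathway genes. Il6, the cytokine interleukin 6, was the lowest target, at -0.23 (SE 0.38), with overlapping groups.

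The ligands differed among themselves. Il1b, the cytokine interleukin 1β, was 2.04 higher (SE 0.57, limma adjusted p 0.194), and Tnfsf9, which encodes the ligand 4-1BBL, was 0.72 higher (SE 0.24, limma adjusted p 0.234). Tnfsf13b, which encodes the B cell survival factor BAFF, had the opposite sign, at -0.57 (SE 0.14, limma adjusted p 0.163). For each of these 3 ligands the groups did not overlap. Lta, a gene beside Tnf on the chromosome, was well above background on 0 of the 6 arrays.

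Receptors and the genes of the signalling chain were mixed. The TNF receptor genes Tnfrsf1a and Tnfrsf1b differed by 0.03 (SE 0.12) and 0.07 (SE 0.14), and the lymphotoxin β receptor gene Ltbr by -0.07 (SE 0.12), all with overlap. Il1r1, the receptor of interleukin 1, was 0.40 higher without overlap (SE 0.17, limma adjusted p 0.294), and Tnfrsf13c, the receptor of BAFF, differed by 0.91 with overlap (SE 0.51). These receptor genes were well above background on 2 and 1 of the 3 control arrays and on all mPGC-1α arrays. Among adaptors, Traf1, itself an NF-κB target, was 1.43 higher (SE 0.53, limma adjusted p 0.265) and Traf5 had a difference of -0.49 (SE 0.13, limma adjusted p 0.189), both without overlap. Myd88, the adaptor of Toll-like and interleukin 1 receptors, differed by 0.15 (SE 0.15). Kinase genes well above background on all 6 arrays ranged from -0.30 for Tbk1 (SE 0.13) to 0.31 for Map3k8 (SE 0.19) and 0.26 for Tab1 (SE 0.16). Of the 10 tested kinases 0 had an unadjusted p under 0.05. A lower mean was found for 7 and a higher mean for 3. Without overlap 3 were lower, Tbk1 among them, and 0 were higher, against 10.8% and 12.2% of all tested genes. Of the other inhibitors, Irak3, a brake on Toll-like receptor signalling, was 0.88 higher (SE 0.28, limma adjusted p 0.227), while Nfkbid differed by 0.34 (SE 0.19) and Tnip2 by -0.22 (SE 0.23), both with overlap.

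**Figure D4:**
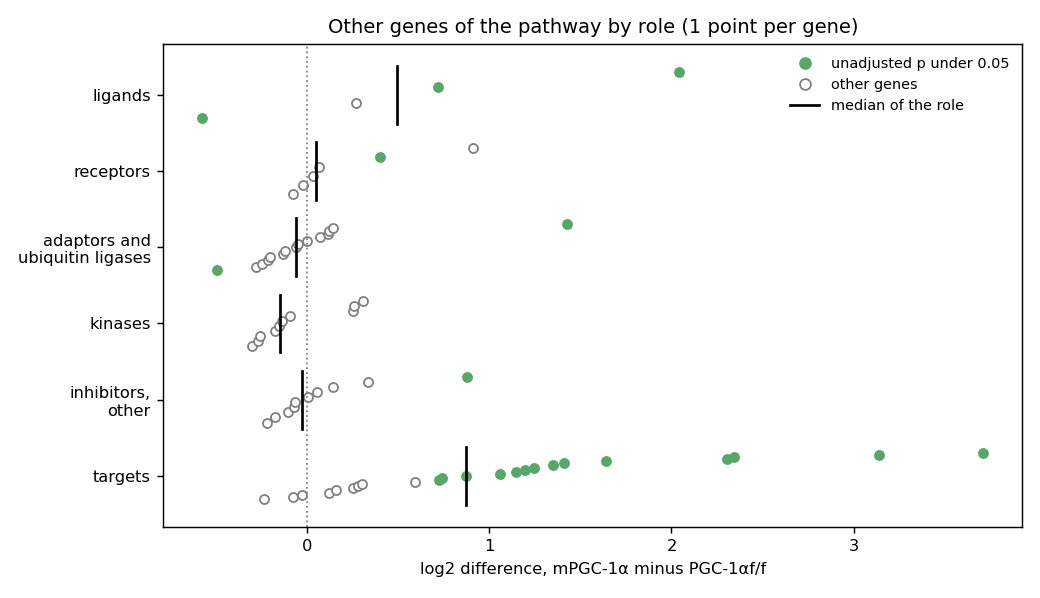
Log2 difference of 68 further pathway genes, mPGC-1α minus PGC-1αf/f, with 1 point per gene in rows by role; filled points have an unadjusted p under 0.05 and black lines mark the median of each role. Most filled points are targets, which spread to the right of 0 with a median of 0.87, while receptors, adaptors, kinases and other inhibitors have medians between -0.14 and 0.05.

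Genes with the most similar profile over the 6 arrays were listed for Tnf and Nfkbia, among 11564 other genes well above background on all arrays. For Tnf they were 1810055G02Rik, Zbtb25, Umps, Glb1 and Eif2b1, with Pearson correlations of 0.986, 0.984, 0.981, 0.980 and 0.979. For Nfkbia they were Slfn2, Ndufa5, Phf11d, Snx3 and Ube2v1, with 0.995, 0.994, 0.992, 0.991 and 0.989. None of the members or of the pathway genes listed by role was among them. These values include the difference between the groups and are given as a description.

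Markers of other cells and of handling were measured beside these genes, because in bulk samples fewer cells of a type and less RNA per cell cannot be told apart. Neutrophil and monocyte transcripts, 12 of 12 with a higher mean in mPGC-1α microglia, had a summed signal of 19.6 to 149 in PGC-1αf/f and 150 to 177 in mPGC-1α microglia, in units of the array's 75th percentile. All 12 were well above background on all arrays, except Elane on PGC-1αf/f replicate 3. The low value, 19.6, was from that array, where Tnf (-1.34) and Nfkbiz (0.27) were at their highest among the controls and Nfkbia (3.15) and Bcl3 (-1.05) were intermediate. Without it, Tnf, Nfkbia, Nfkbiz and Bcl3 differed by 1.24, 0.71, 1.24 and 1.45. Border macrophage markers, 7 of 7 with a higher mean, summed to 9.04 to 12.1 against 11.3 to 19.1. Lymphocyte markers, 4 of 5 higher, summed to 5.92 to 8.91 against 6.52 to 11.2, with Cd79a well above background on 0 arrays. Oligodendrocyte markers, 7 of 7 with a lower mean, summed to 15.3 to 18.5 against 9.69 to 12.6. Among them Mog was well above background on 0 mPGC-1α arrays and was tested only through the controls. The 6 microglial markers with values on every array, 5 of them lower, summed to 92.4 to 106 against 82.6 to 91.2. Cx3cr1, whose locus carries Cre in the mPGC-1α group, had the greatest difference of them, -0.51 (SE 0.14, limma adjusted p 0.194). Cx3cr1 and Olfml3 were lower without overlap, and the groups overlapped for Csf1r, Siglech, P2ry13 and Aif1. The sum without Cx3cr1 was not taken. The part of the markers in this paragraph in the results for Tnf, Nfkbia, Nfkbiz and Bcl3 was not tested.

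Immediate-early and dissociation genes were measured as well. Of 13 listed, 9 were tested, all 9 with a higher mean in mPGC-1α microglia, and Fosb and Dusp1 passed an adjusted p of 0.05 in limma (0.0169 and 0.0122). Hspa1a and Hspa1b, 2 of the 9, were well above background on 2 and 1 control arrays and were tested only through the mPGC-1α arrays. The summed signal of all 9 genes was 15.5, 16.4 and 20.3 in PGC-1αf/f and 38.9, 40.8 and 38.8 in mPGC-1α microglia, with no overlap. Its part in the results for the NF-κB genes was not tested.

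**Figure D5:**
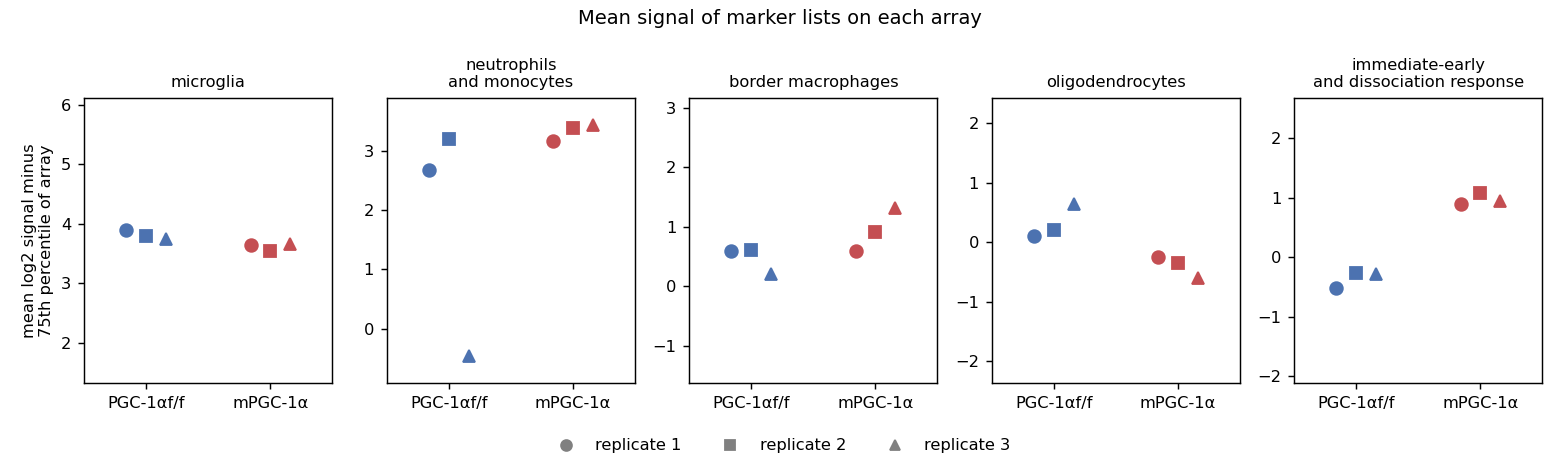
Mean of 5 marker lists on the log2 scale, relative to each array's 75th percentile, with 1 point per array and panels of equal span. The immediate-early and dissociation list lies higher on all 3 mPGC-1α arrays, the oligodendrocyte list lower, and the neutrophil and monocyte list is far below the rest on PGC-1αf/f replicate 3 alone.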

How the data were processed

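Gene expression was measured in microglia of 6 samples, 3 PGC-1αf/f and 3 mPGC-1α, grouped by the labels. Total RNA was amplified by the authors, Cy5-labelled and hybridized to 1-colour Agilent mouse arrays. The deposited scanner files give, per the file headers, a processed intensity from Feature Extraction 11.5.1.1, background-subtracted and detrended within the array, and flags of 0 or 1 per spot (other values). The deposited series table holds the same intensity values rounded to 3 digits. GeneSpring is the normalization software named by the study, which gives no test per gene for these arrays.

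Non-control spots were used, and spots flagged as outliers were left out. Log2 intensity was reduced by the array's 75th percentile and spots of a probe were averaged. A probe was tested where at least 0.5 of its spots were well above background on every array of either group, which held for 25333 of 56605. Accessions were matched to RefSeq symbols of GRCm38.p6, with a symbol for 33767 probes. The array design names another build, so only names and promoter sequences were taken from it. The brightest tested probe with values on all arrays stood for a gene. The fit used lmFit and eBayes of limma (version 3.58.1), two-sided, with Benjamini-Hochberg adjustment over all tested probes, in R 4.3.3, and was checked on data with known answers. A permutation of 3 against 3 arrays cannot go below a two-sided p of 0.1. Plots came from Python 3.11.15 (matplotlib 3.10.9). The number of arrays limits the precision.

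Named genes were the 10 members, the pathway genes past the threshold, the 2 highest and 1 lowest of each role that were well above background on all arrays, and the 5 genes most like Tnf and Nfkbia. Lta, Elane, Cd79a, Fosb, Dusp1, Hspa1a, Hspa1b, Mog, Il1r1, Tnfrsf13c, Cxcl2, Nos2, Clec4e, Csf1 and the genes with values on some arrays were named after their values were seen. So were the microglial markers with values on every array. The members and lists were chosen with earlier results of these data known. Marker lists covered microglia, neutrophils and monocytes, lymphocytes, border macrophages, astrocytes, oligodendrocytes, neurons, endothelial and mural cells, immediate-early and dissociation genes, and Y-linked genes. The 3 lists not described above, astrocytes, neurons, and endothelial and mural cells, had median log2 differences of 0.03, 0.18 and 0.48, with 0 genes past the threshold in limma and 0 at an unadjusted p under 0.05. Alternatives tried were median or quantile scaling, normexp (offset 50, on the median spot signal), the series table as deposited, other filters on dim probes, a mean over the probes of a gene, weighting of arrays, a trended robust eBayes, blocks by replicate number or by slide column (random), and leaving out arrays. For array weights, the default REML method did not converge, and the gene-by-gene method was taken after the REML counts had been seen. Keeping the outlier spots, and the counts over genes well above background on all 6 arrays, were chosen after seeing the data.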

Additional observations from a re-analysis of the deposited data

How the results depend on the processing

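Over 19 alternatives Tnf, Nfkbia, Nfkbiz, Bcl3 and Relb kept a positive difference and Rela a negative one, as did Nfkb1 and Rel over the 18 that tested them. Tnf ranged from 0.63 to 1.24 (limma adjusted p 0.155 to 0.514), Nfkbia from 0.46 to 0.93 (0.129 to 0.925), Nfkbiz from 0.66 to 1.42 (0.0325 to 0.511) and Bcl3 from 1.097 to 1.93 (0.0325 to 0.438). For none of the changes that follow was a cause tested. The number of members past the threshold, 0 as reported, was 1 with array weights (Nfkbiz, 1.42) and 1 in the series table without normalization (Bcl3, 1.49), where the number without overlap was 0 in place of 6 and the share over all genes 9.69% in place of 22.9%. The weighting method was chosen after the counts of a method that did not converge had been seen. When leaving out 1 array, 0 members passed in limma, with 3 to 4 higher below an unadjusted p of 0.05, against 4.76% to 12.9% of all genes. The median of the members was 0.559 with the filter requiring all arrays, which by construction leaves out Nfkb1 and Rel. Leaving out 1 array, Tnfaip3 ranged from -0.0622 to 0.0357, positive without PGC-1αf/f replicate 3 (0.0326) or mPGC-1α replicate 2, and it was 0.0202 without the third array of both groups. Nfkb2 ranged from -0.118 (without PGC-1αf/f replicate 1) to 0.269, was -0.00855 without mPGC-1α replicate 3 and was -0.0404 under the median shift. That shift moved the median of all tested genes from 0.03 to -0.10.

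Of the other pathway genes, 0 passed the threshold as reported, against 6 without normalization, 2 with array weights and 1 with a random block for the slide column. Their median of 0.119 was -0.0140 under the median shift, 0.0359 with normexp, 0.0487 with quantile normalization, 0.0645 with the filter requiring all arrays, 0.0713 with array weights and 0.0426 (without PGC-1αf/f replicate 1) to 0.156 when leaving out 1 array, with 0.0710 without mPGC-1α replicate 3. With the replicate number as a block, 0 members and 0 pathway genes passed in limma (Tnf adjusted p 0.194), and 5 members were higher below an unadjusted p of 0.05, against 10.7% of all genes. Samples with the same number deviated together at correlations of 0.139, 0.127 and 0.0187, too low in the last pair to treat the design as paired. Signal over background limits Nfkb1 and Rel, each well above background on 5 of 6 arrays.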

Other observations

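Several pathway genes lost a value on some arrays to outlier spots and entered no count above. Zfp36, which encodes the RNA-binding protein tristetraprolin that destabilizes Tnf mRNA, was 0.55 higher in mPGC-1α microglia over 3 PGC-1αf/f arrays and 1 mPGC-1α array, a single value with no spread of its own. Zc3h12a, which encodes the RNase regnase-1, was 0.42 higher over 2 arrays per group (SE 0.25, limma adjusted p 0.446). Il1a, which encodes interleukin 1α, differed by -0.50 over 2 PGC-1αf/f and 3 mPGC-1α arrays (SE 0.38, limma adjusted p 0.522). Tlr4, the receptor for bacterial lipopolysaccharide, differed by -0.30 over 2 arrays per group (SE 0.31, limma adjusted p 0.659). N4bp1 differed by -0.18, also over 3 arrays and 1 array. Cd40, Ptgs2, Nlrp3, Tnip3 and Ikbke were well above background on 1 to 3 of the 6 arrays, too few to be tested, and Cxcl1 and Il12b on 0.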
